A study of Mus musculus with 9 samples.

Results

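The mitochondrial carriers of the Slc25 family were followed here across mouse livers labelled as having lost glucagon signalling in either of 2 ways, beside wild-type controls. The set holds the protein-coding genes of the deposited table whose symbol is Slc25a and a number, apart from Slc25a13, Slc25a15, Slc25a20, Slc25a21 and Slc25a22. The rule goes by gene symbol and uses no measured value, though the family was picked with earlier results of these data known, and it gives 39 of the 37583 genes in the table. Liver RNA came from 9 adult male C57Bl6 mice, in 3 groups of 3, aged 16 to 20 weeks and fasted for 6 h. The antibody-labelled group was Gcgr+/+ and received a humanized monoclonal antibody that binds the glucagon receptor, at 10 mg/kg into the peritoneum once a week over 10 days. The knockout-labelled group was Gcgr-/- and received PBS. The wild-type group was Gcgr+/+ and received PBS, so all mice were injected. The labels do not give the part of Gcgr that is disrupted, nor whether its loss is limited to the liver. Each library was made from poly(A) RNA of a liver sample and read as 50-bp pairs. The labels number the libraries of a group 1 to 3, and the p-values below measure the spread between these libraries.

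Slc25 proteins span the inner mitochondrial membrane, where they exchange or import the small molecules that the matrix shares with the cytosol. They share a fold of repeated helices, and members differ in what they carry: nucleotides and phosphate, the acids of the citric acid cycle, amino acids, cofactors, iron or glutathione. In liver these exchanges connect the matrix steps of the urea cycle, gluconeogenesis, fatty acid synthesis and ketogenesis with the steps outside. Glucagon acts on hepatocytes through a receptor that raises cAMP, and favours glucose output and amino acid breakdown in fasting.

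Values are the deposited normalized values of each gene, called normalized counts here, which have a floor of 1. Gcgr, the targeted gene, held 2271, 2496 and 1808 normalized counts in antibody-labelled libraries 1 to 3. It held 27365, 19656 and 21129 in knockout-labelled libraries, against 19547, 17565 and 18451 in wild-type libraries. The low values were thus those of the antibody-labelled libraries, while every knockout-labelled one lay above the wild-type libraries, at a log2 fold change over wild type of -3.09 (limma, adjusted p = 2.29e-06) in antibody-labelled and 0.28 (adjusted p = 0.434) in knockout-labelled libraries. The table has no values by exon, and it cannot be told from these values whether the antibody and knockout labels were exchanged. Every group below is named by its label. The libraries held an estimated 10.99 to 30.06 M reads (M, mega) on genes. Knockout-labelled library 1 had the fewest reads and stood apart, with a first principal component score of 84.3 against -19.2 to 1.71 in the other 8 libraries. The markers of hepatocytes were abundant in every library, and their summed normalized counts overlapped between all 3 groups. Singly, 5 of the 6 were below wild type in antibody-labelled livers (median log2 fold change -0.14, beside 49.7% of all tested genes below 0). In knockout-labelled livers 1 of the 6 was below wild type (median 0.15, beside 51.4%). In antibody- against knockout-labelled livers 6 of 6 were below 0 (median -0.32, beside 46.5%). In each contrast 0 had a limma adjusted p under 0.05, and their part in the carrier values was not tested. Skeletal muscle genes Acta1, Ckm, Tnnt3 and Myh4 were at the floor in all 9 libraries. The remaining gene of that list, Mylpf, was over the floor. The 5 summed to 26.2 to 45.2 normalized counts in antibody-labelled, 33.5 to 40.5 in knockout-labelled and 29.9 to 36.0 in wild-type libraries.

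Slc25 transcripts took overlapping shares of the libraries in the 3 groups. The 39 carriers together made up 0.432% to 0.463% of all normalized counts in antibody-labelled livers, 0.463% to 0.492% in knockout-labelled livers and 0.426% to 0.495% in wild-type livers. Testing needed a value over the floor in 3 or more libraries, and 38 of the 39 carriers passed this filter. Slc25a41, an ATP-Mg and phosphate carrier, was at the floor in all 9 libraries and was not tested. Slc25a18, a glutamate carrier, Slc25a43 and Slc25a31, the ADP/ATP carrier of the testis, passed the filter but stood under 10 estimated reads in every library, and none of them is described further. At the other end, 26 carriers held 100 or more estimated reads in every library.

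Levels of different carriers were compared as normalized counts per kilobase (kb) of exon. The highest in wild-type livers were Slc25a47, Slc25a5, Slc25a39, Slc25a10 and Slc25a1. Together these 5 held between 63.5% and 74.7% of the summed level of all carriers in a library. Slc25a47, a carrier made mainly in liver, averaged 14328 ± 1654 normalized counts per kb in antibody-labelled livers, 19183 ± 4635 in knockout-labelled livers and 12898 ± 2511 in wild-type livers (SD, n = 3 each). Slc25a5, the main ADP/ATP exchanger of the liver, averaged 10384 ± 139, 10264 ± 972 and 9831 ± 630 normalized counts per kb in antibody-labelled, knockout-labelled and wild-type livers (SD, n = 3 each). Slc25a39, which is needed for the import of glutathione, averaged 8119 ± 304, 11399.5 ± 2522 and 9414 ± 447 normalized counts per kb in antibody-labelled, knockout-labelled and wild-type livers (SD, n = 3 each). In wild-type livers Slc25a5 and Slc25a39 did not differ beyond their SDs, and the SD of Slc25a47 was wider than either. Slc25a10, which exchanges dicarboxylates for phosphate, followed in wild-type livers at 6050.3 ± 812 normalized counts per kb, and Slc25a1, the citrate exporter that feeds fatty acid synthesis, at 4496 ± 319 (SD, n = 3 each).

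**Figure D1:**
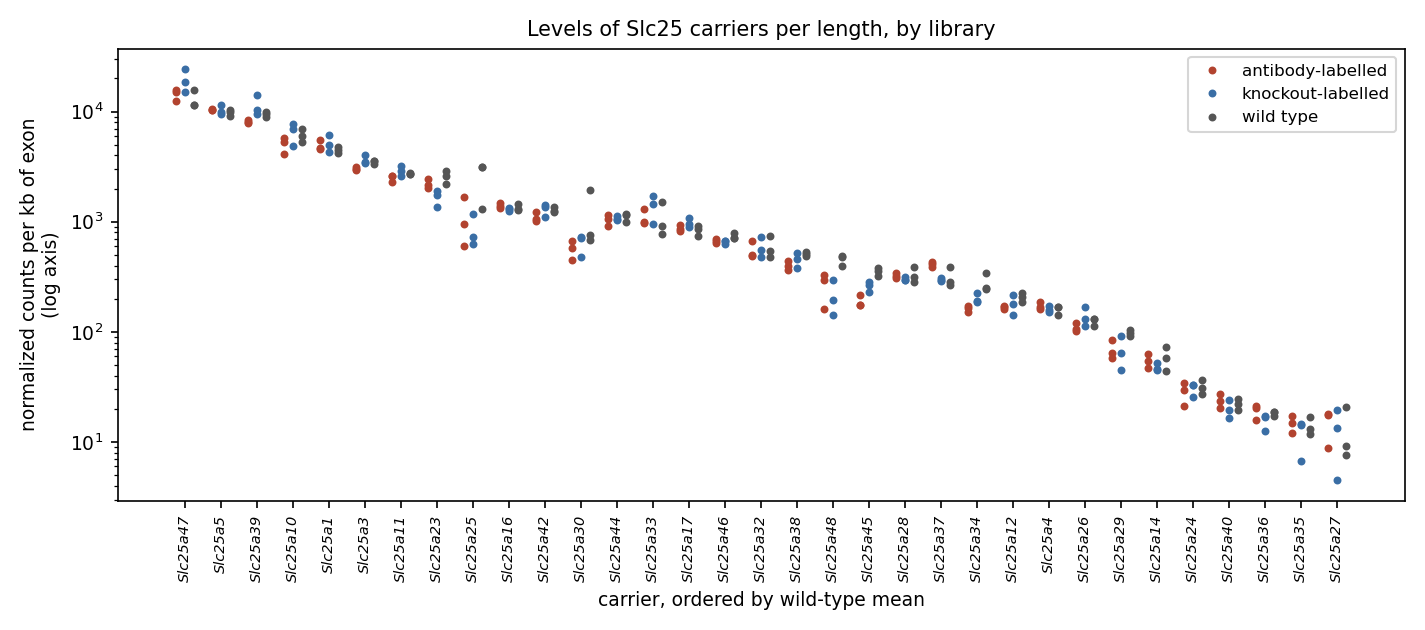
Level of each Slc25 carrier in normalized counts per kilobase of exon, on a log axis, with a point for each of the 9 libraries and a colour for each group. Carriers are ordered by their wild-type mean, and the 5 with the lowest values and 1 carrier not reported here are left out. Slc25a47, Slc25a5 and Slc25a39 have the highest means in all 3 groups, and the points of Slc25a25 spread over 5.15 times between its lowest and highest library.

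Sister carriers with the same cargo differed widely in level. Per length, Slc25a5 stood 55.3 to 65.2 times above Slc25a4, the ADP/ATP exchanger of heart and muscle, in antibody-labelled livers, 60.3 to 66.3 times in knockout-labelled livers and 54.0 to 69.4 times in wild-type livers. The sequences of these sister genes are close, and how the counting treated reads that fit both is not given in the sources used here. Slc25a39 stood 309 to 396 times above its sister Slc25a40 per length in antibody-labelled livers, 435 to 870 times in knockout-labelled livers and 384 to 461 times in wild-type livers. The 870 is from knockout-labelled library 1, where Slc25a40 rests on 29 estimated reads, beside 490 and 435 in knockout-labelled libraries 2 and 3. The mitoferrins Slc25a37 and Slc25a28, which import iron, were near each other, with a ratio per length of 1.196 to 1.355 in antibody-labelled livers, 0.915 to 1.05 in knockout-labelled livers and 0.691 to 1.35 in wild-type livers. These ratios are descriptions, and the 3 ranges overlapped for the ADP/ATP exchangers.

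Antibody-labelled against wild-type livers asks which carriers differ in the livers labelled as given the antibody. Slc25a45 and Slc25a34 fell, and the other 36 tested carriers did not pass limma's test. Slc25a45 is an inner-membrane carrier that in human cells has been tied to the uptake of methylated basic amino acids for carnitine synthesis, and the cargo of Slc25a34 is not established. In level per kb in wild-type livers, Slc25a45 ranked 20 and Slc25a34 ranked 23 of the 39 carriers. These 2 calls of 38 stand beside 1.34% of all 20029 tested genes past the same threshold, an adjusted p under 0.05 (Benjamini-Hochberg over all genes), and 0.624% past it in the lower direction.

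Slc25a45 (ENSMUSG00000024818, mm9 chromosome 19, 5877808 to 5885766, plus strand) held 591, 489 and 483 normalized counts in antibody-labelled libraries 1 to 3. It held 776, 735 and 631 in knockout-labelled libraries, against 1049, 985 and 887 in wild-type libraries. The antibody-labelled libraries were the lowest, the knockout-labelled ones lay between, and none of the 3 groups overlapped. In antibody-labelled livers the mean was 53.5% of wild type, a log2 fold change of -0.90 (SE 0.13, limma adjusted p = 0.0075). Knockout-labelled livers stood at -0.45 against wild type (SE 0.13, limma adjusted p = 0.173) and antibody-labelled at -0.45 against knockout-labelled livers (SE 0.13, limma adjusted p = 0.181), and neither passed. The call held without any single library and ended without limma's trend and robust estimation (adjusted p = 0.051). The values rest on 163.6 to 654.8 estimated reads a library. In whole liver, fewer cells of a type and less RNA per cell cannot be told apart.

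Slc25a34 (ENSMUSG00000040740, mm9 chromosome 4, 141174739 to 141179736, minus strand) held 461, 436 and 405 normalized counts in antibody-labelled libraries 1 to 3. It held 496, 513 and 597 in knockout-labelled libraries, against 670.1, 656 and 912 in wild-type libraries. Again the 3 groups did not overlap, with antibody-labelled lowest and wild type highest, and wild-type library 3 the highest of all. The mean in antibody-labelled livers was 58.2% of wild type, a log2 fold change of -0.77 (SE 0.15, limma adjusted p = 0.0306). Knockout-labelled livers stood at -0.47 against wild type (SE 0.15, limma adjusted p = 0.208) and antibody-labelled at -0.30 against knockout-labelled livers (SE 0.15, limma adjusted p = 0.420). The call of Slc25a34 was lost when any 1 of the 6 antibody-labelled and wild-type libraries was left out, at adjusted p from 0.0653 to 0.121, and without limma's trend and robust estimation (adjusted p = 0.111), while its direction held.

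The windows just upstream of both genes are shown because these 2 carriers passed the test. That of Slc25a25, a carrier added after its low values were seen, is shown beside them and holds the cAMP response element TGACGTCA. Capitals mark that element, the CCAAT box (CCAAT or ATTGG) and the GC box (GGGCGG or CCGCCC). Each line gives 250 bases ending at a RefSeq transcript start, 5′ to 3′ on the strand of the gene, in build GRCm38.p6, which is not the mm9 build of the gene coordinates above. Slc25a25 has 3 such windows, of which 1 holds the element, and the window shown lies at chr2:32424067-32424316 on the minus strand. The window of Slc25a45 lies at chr19:5877572-5877821 on the plus strand and that of Slc25a34 at chr4:141623835-141624084 on the minus strand.
Slc25a45: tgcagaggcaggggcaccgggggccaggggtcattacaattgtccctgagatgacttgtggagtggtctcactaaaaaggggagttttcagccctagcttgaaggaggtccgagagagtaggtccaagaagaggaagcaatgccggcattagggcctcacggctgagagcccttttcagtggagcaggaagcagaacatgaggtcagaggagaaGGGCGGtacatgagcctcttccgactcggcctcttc
Slc25a34: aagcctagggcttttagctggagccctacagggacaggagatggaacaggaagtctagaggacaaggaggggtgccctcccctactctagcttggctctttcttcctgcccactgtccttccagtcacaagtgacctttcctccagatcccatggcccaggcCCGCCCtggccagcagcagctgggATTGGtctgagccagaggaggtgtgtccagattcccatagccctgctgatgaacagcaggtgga
Slc25a25: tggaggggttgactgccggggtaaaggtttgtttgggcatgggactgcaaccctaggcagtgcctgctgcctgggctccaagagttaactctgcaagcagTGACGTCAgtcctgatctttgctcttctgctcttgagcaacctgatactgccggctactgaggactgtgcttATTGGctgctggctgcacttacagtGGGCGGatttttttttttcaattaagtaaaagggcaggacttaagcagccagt
In the Slc25a25 window the element starts at base -150 from the transcript start. RefSeq windows were found for 29 of the 39 carriers, 34 windows in all. TGACGTCA, which reads the same on both strands, was in 5.88% of the 34 windows and in 1.55% of the 32851 windows of all genes. Slc25a36, a pyrimidine nucleotide carrier, was the other carrier with the whole element, and its log2 fold changes were 0.06 in antibody-labelled and -0.24 in knockout-labelled against wild-type livers, neither past the test. The window of Slc25a36 is not shown. The shorter TGACG or CGTCA, part of that element, was in 26.5% of the carrier windows and 17.8% of all windows. A GC box was in 70.6% and 32.7%, and a CCAAT box in 50% and 33.8%, of carrier and of all windows. Such matches describe the letters only.

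**Figure D2:**
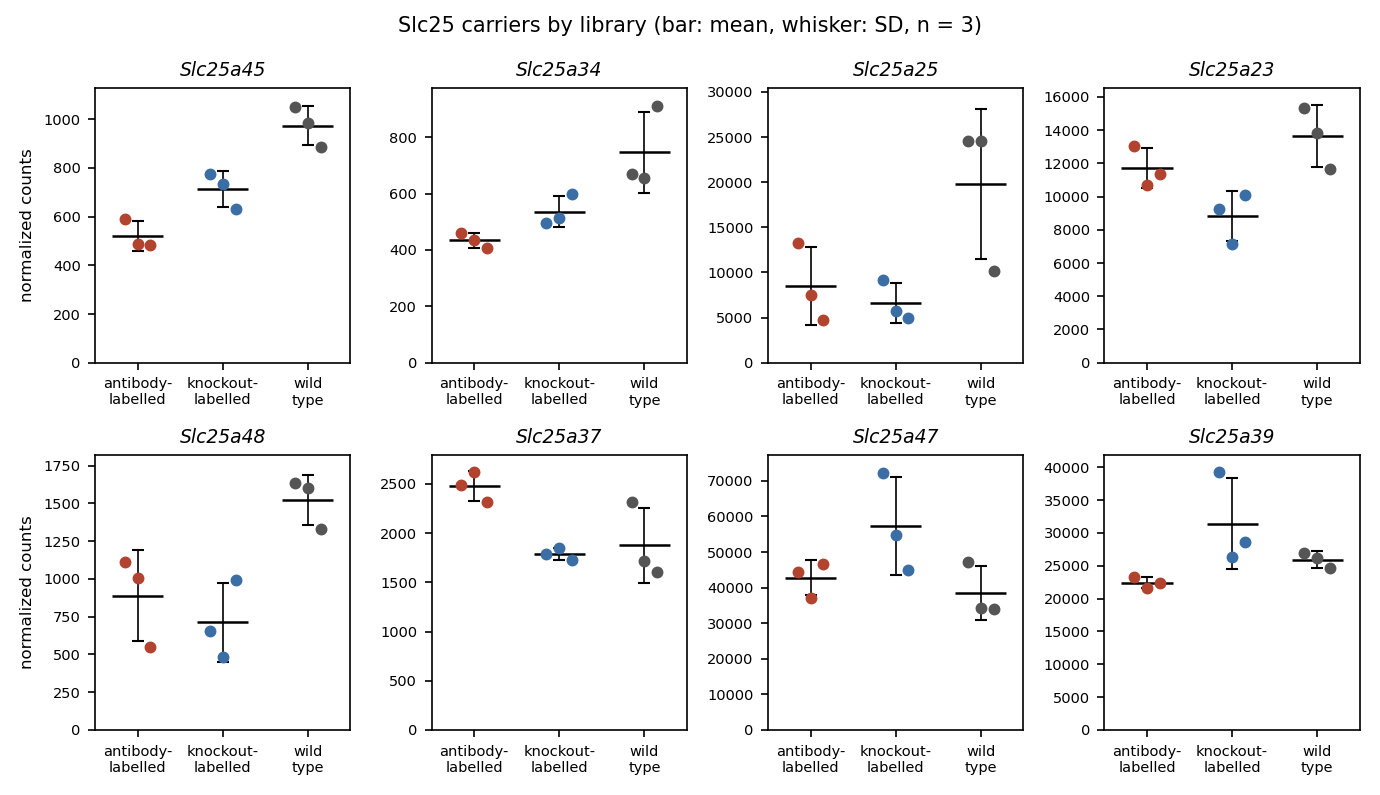
Normalized counts of 8 Slc25 carriers in each library, with a point for each library, a bar for the mean and a whisker for the SD (n = 3 for each group). For Slc25a45 and Slc25a34 the antibody-labelled libraries lie lowest, the knockout-labelled between and the wild type highest, with no overlap. For Slc25a25 the 3 wild-type libraries are spread between 10194 and 24592.

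In antibody-labelled livers more carriers leaned low than high, with the 2 that passed the test included in the counts. Of 38 carriers, 24 (63.2%) had a log2 fold change below 0 against wild type, beside 49.7% of all tested genes, and their median was -0.11, beside 0.00 for all tested genes. The groups did not overlap for 12 carriers lower (31.6%, beside 9.54% of all genes) and 1 higher (2.63%, beside 9.65%). Non-overlap in either direction was seen in 13 of the 38 carriers, beside 3843 of the 20029 tested genes (19.2%). At an unadjusted p under 0.05, 5 were lower (13.2%, beside 4.53%) and 1 was higher (2.63%, beside 5.74%), or 15.8% in all, beside 10.3%. The fold changes of all 38 lay between -1.23 and 0.42.

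Slc25a37, mitoferrin 1, was the highest of these. It held 2490.4, 2619 and 2317 normalized counts in antibody-labelled libraries and 1788, 1847 and 1727 in knockout-labelled libraries, against 2313, 1721 and 1600.1 in wild-type libraries. The antibody-labelled libraries lay above both other groups, the lowest of them only just above wild-type library 1. The log2 fold change was 0.42 over wild type (SE 0.13, limma adjusted p = 0.231) and 0.47 over knockout-labelled livers (SE 0.13, limma adjusted p = 0.168). Its sister Slc25a28 was at -0.01 against wild type. Erythroid markers, which belong to cells where mitoferrin 1 is abundant, had sums of 6872 to 11893 normalized counts in antibody-labelled, 7299 to 11276 in knockout-labelled and 8770.2 to 11788 in wild-type livers, so these sums overlapped. Singly, 5 of the 5 were below wild type in antibody-labelled livers (median -0.24, beside 49.7% of all genes below 0). In knockout-labelled livers 4 were (median -0.29, beside 51.4%). Of the 5, 0 passed limma's test in either contrast, and their part was not tested. Slc25a38, which carries glycine for haem synthesis, held 1082, 1202 and 994 normalized counts in antibody-labelled libraries. It held 1255, 1044 and 1439 in knockout-labelled libraries, against 1336, 1466 and 1411 in wild-type libraries. Antibody-labelled livers were below wild type without overlap, at -0.37 (SE 0.13, limma adjusted p = 0.310).

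Sinusoidal endothelial markers summed to 16682 to 17821 normalized counts in antibody-labelled livers, 15279 to 17862 in knockout-labelled and 14209 to 16542 in wild-type livers. Stellate cell and fibroblast markers summed to 12723 to 13863, 12305 to 12742 and 11039 to 12688. For both lists the antibody-labelled livers were above wild type in each library, 0 of 5 markers passed limma's test in each list, and their part in the lower carriers was not tested. Adipocyte markers summed to 23.7 to 422 normalized counts in antibody-labelled livers, 4.44 to 36.8 in knockout-labelled livers and 11.5 to 17.5 in wild-type livers, with Cfd at 3.21 on the log2 scale in antibody-labelled over wild-type livers (limma adjusted p = 0.357). Of these 3 markers, 2 were at or under 10 normalized counts in every library. Only 2 were tested, and the one beside Cfd went the other way, at -0.19. Pancreatic acinar markers, with Cpa1 and Prss2 at the floor in all 9 libraries, summed to 302 to 329 in antibody-labelled, 334 to 418 in knockout-labelled and 348 to 521 in wild-type livers. Of these 4 markers, 3 were at or under 10 normalized counts in every library. Only 1 was tested, at -0.35 in antibody-labelled against wild-type livers, so this sum is nearly that of 1 gene. In antibody-labelled livers the sum was above wild type for the adipocyte list and below it for the acinar list, without overlap, and their part was not tested either.

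Knockout-labelled against wild-type livers asks how the carriers stand where the gene of the receptor carries a knockout label. No carrier passed limma's test, with 7 of 38 at an unadjusted p under 0.05 (18.4%, beside 13.8% of all genes). Of these, 1 was higher (2.63%, beside 5.61%) and 6 were lower (15.8%, beside 8.16%). The background of calls was also low, at 0.155% of the 20029 tested genes. The groups did not overlap for 7 carriers lower (18.4%, beside 9.35% of all genes) and 0 higher (beside 7.09%), or 7 in all (18.4%, beside 16.4%). Values below 0 made up 57.9% of the carriers, beside 51.4% of all genes. The median log2 fold change was -0.06, beside -0.01 for all genes, and the range was -1.52 to 0.56. Cholangiocyte markers summed to 946 to 1081 normalized counts in knockout-labelled livers and 1138 to 1475 in wild-type livers, with no overlap and 0 of 4 past limma's test (1 at an unadjusted p under 0.05). Singly the markers went both ways, 2 below 0 and 2 above, between -0.57 and 0.32 on the log2 scale. Their part in the lower carriers was not tested.

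Slc25a23, a calcium-sensitive ATP-Mg and phosphate carrier, held 9266, 7172 and 10083 normalized counts in knockout-labelled libraries, against 15364, 13853 and 11664 in wild-type libraries. The groups did not overlap, at a log2 fold change of -0.63 (SE 0.15, limma adjusted p = 0.103). In antibody-labelled libraries it held 13049, 10703 and 11389.8 normalized counts, above all knockout-labelled libraries, at -0.21 against wild type (SE 0.15, limma adjusted p = 0.752) and 0.42 against knockout-labelled livers (SE 0.15, limma adjusted p = 0.267). The gene overlaps Crb3 and the antisense gene Gm17168 on the other strand, and whether the counting used strand is not given in the sources used here.

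Slc25a48, which carries choline in human cells, held 658, 484 and 993 normalized counts in knockout-labelled libraries, against 1635, 1599 and 1332 in wild-type libraries. Antibody-labelled libraries held 1114, 1004 and 549.9 normalized counts, also below every wild-type library. The log2 fold changes against wild type were -1.15 in knockout-labelled livers (SE 0.30, limma adjusted p = 0.140) and -0.83 in antibody-labelled livers (SE 0.30, limma adjusted p = 0.323). The second was -0.52 without antibody-labelled library 3. The antibody- and knockout-labelled groups overlapped, at 0.32 (SE 0.30, limma adjusted p = 0.691). The contrasts against wild type share the wild-type libraries, so they are not independent of each other.

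Slc25a25, a second calcium-sensitive ATP-Mg and phosphate carrier, had the lowest fold change of any carrier in both contrasts with wild type and is given for that reason, after its values were seen. It held 13242, 7478 and 4773 normalized counts in antibody-labelled libraries and 9170.3, 5758 and 4968 in knockout-labelled libraries, against 24592, 24531 and 10194 in wild-type libraries. Wild-type library 3 lay far below the other 2, and antibody-labelled library 1 lay above it. The fold changes were -1.23 in antibody-labelled against wild-type livers (SE 0.48, 95% interval -2.35 to -0.12, limma adjusted p = 0.424) and -1.52 in knockout-labelled against wild-type livers (SE 0.48, 95% interval -2.63 to -0.40, limma adjusted p = 0.229). The gene overlaps Naif1 on the other strand by 989 bases. The ratio of Slc25a23 to Slc25a25 per length was 1.463 to 3.544 in antibody-labelled livers and 1.501 to 3.014 in knockout-labelled livers, against 0.839 to 1.699 in wild-type livers. Slc25a24, another carrier of this kind, was low, at 28.3 ± 6.64, 30.6 ± 4.34 and 31.8 ± 4.80 normalized counts per kb in antibody-labelled, knockout-labelled and wild-type livers (SD, n = 3 each).

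Slc25a47 held 44528, 37192 and 46587 normalized counts in antibody-labelled libraries and 72176, 54761 and 44847 in knockout-labelled libraries, against 47156, 34302 and 34047 in wild-type libraries. Knockout-labelled library 1 was far above the rest, and the groups overlapped. The log2 fold change in knockout-labelled against wild-type livers was 0.56 (SE 0.19, limma adjusted p = 0.212), and 0.38 without knockout-labelled library 1. Its neighbour Slc25a29, a carrier of basic amino acids 15245 bases away on chromosome 12, stood at -0.60 in knockout-labelled livers (limma adjusted p = 0.303) and -0.52 in antibody-labelled livers (limma adjusted p = 0.499) against wild type. Without knockout-labelled library 1, which holds 25 estimated reads of it, Slc25a29 was at -0.35 in knockout-labelled livers.

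**Figure D3:**
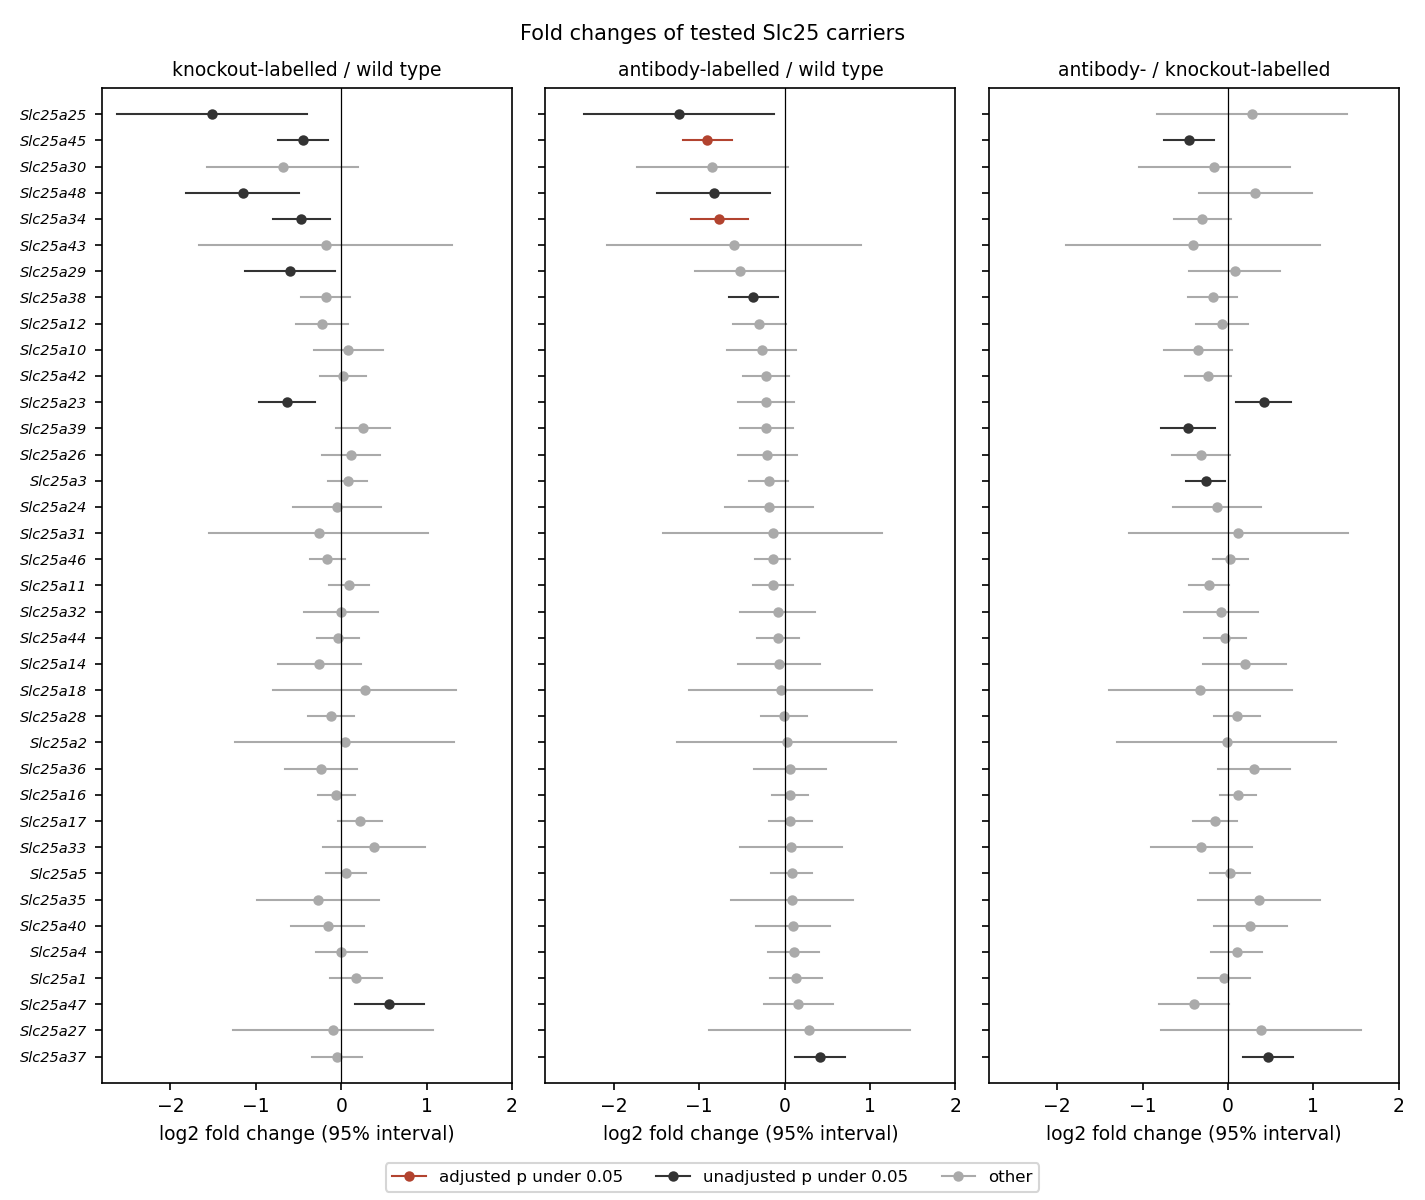
Log2 fold changes with 95% intervals of the tested Slc25 carriers, 1 not reported here left out, in knockout-labelled over wild-type livers (left), antibody-labelled over wild-type livers (middle) and antibody- over knockout-labelled livers (right). Carriers are ordered by the middle panel, and colour marks an adjusted or an unadjusted p under 0.05. Slc25a45 and Slc25a34 are the carriers past the threshold, in the middle panel.

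Antibody-labelled against knockout-labelled livers compares the 2 labelled groups, which by their labels differ in both genotype and injection. No carrier passed limma's test, beside 0.28% of all tested genes, and 5 of 38 had an unadjusted p under 0.05 (13.2%, beside 13.3% of all genes). Of these, 2 were higher (5.26%, beside 7.78%) and 3 were lower (7.89%, beside 5.53%). Every tested carrier lay between -0.47 and 0.47 on the log2 scale, with a median of -0.04, beside 0.02 for all genes. The groups did not overlap for 3 carriers higher (7.89%, beside 9.82%) and 4 lower (10.5%, beside 7.38%), or 7 of 38 in all, beside 3444 of 20029 genes (17.2%). Values below 0 made up 55.3% of the carriers, beside 46.5% of all genes.

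Slc25a39 held 23239, 21566 and 22325 normalized counts in antibody-labelled libraries, against 39324, 26271 and 28656 in knockout-labelled libraries. Wild-type libraries held 27015, 26219 and 24599. The antibody-labelled libraries lay below both other groups, at -0.47 against knockout-labelled livers (SE 0.14, limma adjusted p = 0.196), and at -0.29 without knockout-labelled library 1, the highest of the 9. Slc25a3, the phosphate carrier that supplies ATP synthase, followed the same order, with 16812, 16498 and 17316 normalized counts in antibody-labelled libraries, 22493, 19304 and 19091 in knockout-labelled libraries and 19575, 18384 and 19709 in wild-type libraries. Its fold change was -0.26 in antibody- against knockout-labelled livers (SE 0.11, limma adjusted p = 0.316), and -0.19 without knockout-labelled library 1. Without that library, Slc25a3 went from 0.075 to -0.001 in knockout-labelled against wild-type livers.

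By role, 0 of the 8 tested nucleotide and phosphate carriers, with Slc25a17 of peroxisomes among them, passed limma's test in any contrast. At an unadjusted p under 0.05 there were 1 in antibody-labelled and 2 in knockout-labelled against wild-type livers, all lower, and 1 higher and 1 lower in antibody- against knockout-labelled livers. Over all genes, in either direction, such p made up 10.3%, 13.8% and 13.3% in these contrasts. Of the 4 carriers of citrate, dicarboxylates, oxoglutarate and aspartate, 0 passed, and 0 had an unadjusted p under 0.05 in any contrast. Slc25a5 had 17293, 17140.2 and 16843 normalized counts in antibody-labelled libraries and 16341, 15645 and 18699 in knockout-labelled libraries, against 16346, 15074 and 17127 in wild-type libraries. Slc25a10 had 19890.1, 18252 and 14134 in antibody-labelled libraries and 23931, 16807 and 26595 in knockout-labelled libraries, against 23790.0, 20734 and 18188 in wild-type libraries. Both carriers overlapped between all groups. Over the 9 libraries the highest value of Slc25a5 was 1.24 times its lowest and that of Slc25a10 was 1.88 times its lowest. Slc25a11, the oxoglutarate and malate exchanger, was at -0.13, Slc25a12, an aspartate and glutamate carrier, at -0.30, and Slc25a1 at 0.13 in antibody-labelled against wild-type livers.

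Of the 7 carriers of cofactors and pyrimidine nucleotides, 0 passed limma's test in any contrast, and 0 had an unadjusted p under 0.05. Of the 5 amino acid carriers, 0 passed, with medians of -0.08 in antibody-labelled and -0.04 in knockout-labelled against wild-type livers and 1 lower in each at an unadjusted p under 0.05, beside 4.53% and 8.16% of all genes lower in these contrasts. Of the 4 carriers of iron and glutathione, 0 passed, with medians of 0.04 and -0.09 in the same contrasts. At an unadjusted p under 0.05 they had 1 and 0, beside 10.3% and 13.8% of all genes. In antibody- against knockout-labelled livers they had 1 higher and 1 lower, beside 13.3% of all genes in either direction. Against wild type, Slc25a42, which imports coenzyme A, had the lowest log2 fold change of the cofactor carriers in antibody-labelled livers, at -0.22, and Slc25a33, a pyrimidine nucleotide carrier, the highest in knockout-labelled livers, at 0.38. Without 1 library the value of Slc25a33 was between 0.18 and 0.66. Slc25a26, the importer of S-adenosylmethionine, was at -0.20 in antibody-labelled and 0.11 in knockout-labelled livers against wild type, and the second value was -0.04 without knockout-labelled library 1. Among the 3 carriers like uncoupling proteins, Slc25a30 was at -0.85 in antibody-labelled and -0.69 in knockout-labelled against wild-type livers. Wild-type library 2 held 8828 normalized counts of Slc25a30, beside 3495 and 3126 in the other wild-type libraries, 2052 to 3076 in antibody-labelled libraries and 2170.4 to 3299 in knockout-labelled libraries. Without that library Slc25a30 was at -0.37 in antibody-labelled and -0.21 in knockout-labelled against wild-type livers. Slc25a46, an outer-membrane member tied to mitochondrial shape, was at -0.14 and -0.17 against wild type in antibody- and knockout-labelled livers. Slc25a44, which carries branched-chain amino acids, was at -0.08 and -0.04. Over the alternatives, the sign held throughout for 25 of 38 carriers in antibody-labelled and 20 of 38 in knockout-labelled against wild-type livers. Some alternatives, such as another filter or leaving out a library of the third group, cannot move a fold change, so only the others can turn a sign. The largest values whose sign turned were 0.19 and 0.27 in size, so values of that size or under are not read as directions.

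In the deposited paralogue column, the relatives of Slc25a45 lay on both sides of 0 in knockout-labelled against wild-type livers. In antibody-labelled livers those above 0 were of a size not read as a direction. So were both values of Slc25a35, the only relative of Slc25a34. Among the relatives of Slc25a45, Slc25a48 and Slc25a29 were below 0 against wild type in both contrasts (-0.83 and -0.52 in antibody-labelled, -1.15 and -0.60 in knockout-labelled livers), as was the ornithine carrier Slc25a15, while Slc25a47 was at 0.16 in antibody-labelled and 0.56 in knockout-labelled livers. Slc25a20, set apart by the rule, was at -0.21 in antibody-labelled and 0.20 in knockout-labelled livers. Slc25a2, with at most 11 estimated reads in a library, was at 0.02 and 0.04. Slc25a35, the relative of Slc25a34, was at 0.09 in antibody-labelled and -0.27 in knockout-labelled livers. The second of these turned to 0.08 without knockout-labelled library 1, which holds 5.25 estimated reads of Slc25a35. Per length, Slc25a34 stood 9.56 to 12.5 times above Slc25a35 in antibody-labelled livers, 13.1 to 27.4 times in knockout-labelled livers and 14.98 to 29.06 times in wild-type livers.

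The genes around the carriers give their setting. Of the 5 Slc25 genes set apart from the list, 3 passed in antibody-labelled against wild-type livers, all lower: Slc25a22, a glutamate carrier, at -1.27, Slc25a15 at -1.05 and Slc25a21, the oxodicarboxylate carrier, at -0.58 (limma adjusted p = 0.00171, 0.0053 and 0.0411), beside 0.624% of all genes past the threshold and lower. In knockout-labelled against wild-type livers 0 of the 5 passed, with 3 lower at an unadjusted p under 0.05, beside 8.16% of all genes. Of the 6 tested carrier-fold genes with other symbols, Ucp2, an uncoupling protein, rose and Mcart1, the NAD carrier now named Slc25a51, fell in antibody-labelled against wild-type livers. Ucp2 held 4778, 5549 and 4487 normalized counts in antibody-labelled libraries and 5222, 3756 and 3787 in knockout-labelled libraries, against 2766, 2265 and 2768 in wild-type libraries (0.93 in antibody-labelled, limma adjusted p = 0.0101, and 0.70 in knockout-labelled, limma adjusted p = 0.0762). Mcart1 held 3322, 2364 and 2374 normalized counts in antibody-labelled libraries and 2922, 2517 and 2670.2 in knockout-labelled libraries, against 6475, 3930.3 and 5494 in wild-type libraries (-0.97 in antibody-labelled, limma adjusted p = 0.0238, and -0.94 in knockout-labelled, limma adjusted p = 0.0663). The call of Slc25a21 was lost without any 1 of the 6 libraries compared (limma adjusted p = 0.0832 to 0.187). That of Ucp2 was lost without wild-type library 2 (0.0540) or antibody-labelled library 2 (0.0559), and that of Mcart1 without wild-type library 1 (0.0973) or 3 (0.0716) or antibody-labelled library 2 (0.112) or 3 (0.0929), all limma adjusted p. For Ucp2 all antibody- and knockout-labelled libraries lay above all wild-type libraries, and for Mcart1 all lay below.

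**Figure D4:**
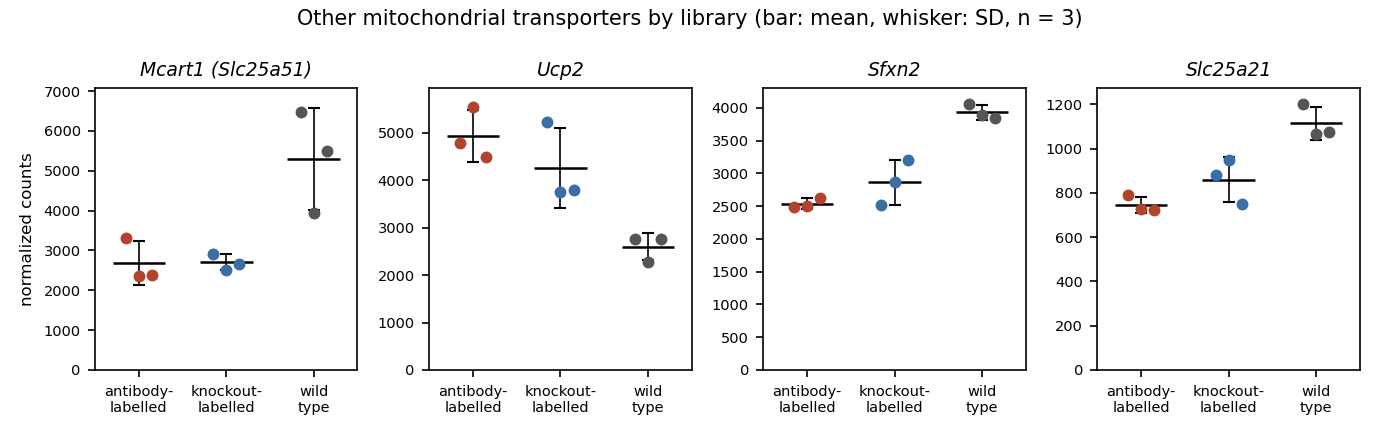
Normalized counts of Mcart1 (Slc25a51), Ucp2, Sfxn2 and Slc25a21 by library, with a point for each library, a bar for the mean and a whisker for the SD (n = 3 for each group). In the antibody-labelled livers Ucp2 was higher and the other 3 genes were lower than in wild type, with no overlap.

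Among 15 other mitochondrial transporters and porins, 1 passed in antibody-labelled against wild-type livers, the sideroflexin Sfxn2, of a family that carries serine, at -0.63 (limma adjusted p = 0.0138). Sfxn2 held 2479.6, 2504 and 2630.0 normalized counts in antibody-labelled libraries and 2515, 2872 and 3198 in knockout-labelled libraries, against 4057, 3893 and 3846 in wild-type libraries, which were above all others. This call was lost without wild-type library 1 or 2 (limma adjusted p = 0.0698 and 0.0641) or antibody-labelled library 1 or 2 (0.0570 and 0.0685). The median of the 15 was -0.07, and the pyruvate carrier subunits and porins did not pass. The 11 genes of the machinery that imports carriers into the membrane had 0 past in any contrast, with medians of -0.03 in antibody-labelled and 0.11 in knockout-labelled livers against wild type. The 16 genes of mitochondrial content and its regulators also had 0 past, with medians of -0.05 and 0.01 in the same contrasts. At an unadjusted p under 0.05 against wild type, the import list had 0 in antibody-labelled and 1 in knockout-labelled livers, and the content list 0 and 1. In antibody- against knockout-labelled livers they had 2 and 3. Over all genes such p made up 10.3% in antibody-labelled and 13.8% in knockout-labelled against wild-type livers, and 13.3% in antibody- against knockout-labelled livers. Of the 4 enzymes of the malate-aspartate shuttle, whose carriers are Slc25a11, Slc25a12 and the Slc25a13 set apart above, Got1, the cytosolic aspartate aminotransferase, fell in both contrasts with wild type, by 3.16 in antibody-labelled livers (limma adjusted p = 8.92e-04) and by 1.93 in knockout-labelled livers (limma adjusted p = 0.0284), while the other 3 did not pass. The call of Got1 in knockout-labelled livers was lost without wild-type library 1 or 2 (limma adjusted p = 0.165 and 0.103), knockout-labelled library 1 (0.109) or antibody-labelled library 2 (0.0574).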

How the data were processed

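Liver poly(A) RNA of 9 mice was sequenced in 3 groups of 3. FastQC, TopHat2 2.0, SAMtools and the mm9 mouse build are named in the submitters' processing notes. How reads were counted and scaled is not given in the sources used here. In the table are, per the labels, the authors' normalized expression values, a signal per gene with a floor of 1. Reads were estimated by dividing by the commonest value between the floor and 30 in each library, read as 1 read. Of values under 10 estimated reads, 40.8% to 45.8% came out whole within 0.01 read, so whole reads could not be recovered and count tests were not run. Values were taken as log2(value + 1), pseudocount 1, so the fold changes of low genes are understated. Genes above 1 in at least 3 of 9 libraries were fitted with limma 3.58.1 in R 4.3.3 (trend, robust) and group as the single factor, with Benjamini-Hochberg adjustment over 20029 genes, threshold 0.05, two-sided. The fit was tested on simulated data. With 3 against 3, the smallest permutation p is 0.1, so none was run. Exon lengths are those of GENCODE M21, and upstream windows are RefSeq's.

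The rule for members uses symbols alone, but the family and the lists were chosen with earlier results of these data known. Library values are given for carriers past the threshold in any contrast, for the 4 with the smallest p in each contrast, for the 5 with the highest mean value over all libraries (not per kb), and for genes of the accompanying lists past the threshold. Slc25a25 and Slc25a30 were added after their values were seen. There were 18 alternatives for each contrast. Of the carriers, 14 overlap another annotated gene, and the use of strand in counting is not given in the sources used here. For 1 carrier, counted in the totals, values are not reported here.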

Additional observations from a re-analysis of the deposited data

How the results depend on the processing

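Carriers with an unadjusted p under 0.05 kept the sign of their fold change under all 18 alternatives of that contrast. Part of this was fixed in advance. Another filter, no trend and robust estimation, the 6 libraries alone, the replicate block and leaving out a library of the third group cannot move a fold change. In knockout-labelled against wild type, 0 carriers passed in 17 of 18 alternatives and 1, Slc25a25, with the replicate block (adjusted p = 0.0195). In antibody-labelled against wild type, the 2 carriers became 3 with the replicate block (Slc25a25 added, adjusted p = 0.0115), 0 without limma's trend and robust estimation (6 at an unadjusted p under 0.05), and between 1 and 2 when 1 library was left out. Slc25a45 held in 17 of 18 (adjusted p = 0.051 without trend and robust estimation) and Slc25a34 in 11. In antibody- against knockout-labelled livers, 0 carriers passed in all 18, between 0 and 0 when 1 library was left out. Same-numbered libraries deviated together at correlations of -0.136 to 0.126, beside -0.124 to 0.136 for other pairs. So few pairs cannot tell whether a number marks a shared batch or order, which was not tested. Slc25a25, which passed in no alternative but the replicate block, fell from library 1 to library 3 in each group. Over all genes, the 31 calls in knockout-labelled against wild type became 3 with no filter, 0 without trend and robust estimation together (2402 at an unadjusted p under 0.05), 17 in the 6 libraries compared and 4 to 154 with 1 library left out. The 268 in antibody-labelled against wild type became 71 without both, 666 with library weights and 111 to 295 with 1 left out. The 56 in antibody- against knockout-labelled became 23 with a pseudocount of 10, 3 with no filter, 1 without both, 29 with median-of-ratios scaling, 19 with library weights, 24 in the 6 libraries and 1 to 91 with 1 left out. Calls beside the carriers held in 18 of 18 for Slc25a22 and for Got1 in antibody-labelled livers, 17 for Slc25a15, 15 for Ucp2, 13 for Sfxn2, 11 for Mcart1 and for Got1 in knockout-labelled livers, and 9 for Slc25a21, alternatives added after seeing the data. The cause of these shifts was not tested. Depth limits the 4 carriers under 10 estimated reads.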
